A study of Mus musculus with 12 samples.

Results

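The genes described here are 35 genes of cholesterol and fatty acid synthesis, grouped by function. The list was chosen with earlier results of these data known. All 35 were present among the 18601 genes of the mouse expression matrix, and they were followed across 12 single-cell libraries of CD4 T cells in CD3-positive cells, meaning cells with 3 or more UMIs summed over Cd3d, Cd3e and Cd3g. A UMI (unique molecular identifier) tags 1 captured transcript near its 3′ end. The list holds 17 enzymes of the sterol pathway, 6 genes of sterol sensing and transport, 4 of fatty acid synthesis, 6 desaturases and elongases, and 2 sterol efflux pumps.

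The study gave Th1 cells, the class of helper T cell known for making interferon-γ, to recipient mice and recovered CD4 T cells from the spleen, the lamina propria (LP) of the colon and of the small intestine, and the colon epithelium. Donor cells were either controls with 1 wildtype and 1 eGFP allele of the IL-23 receptor gene (Il23r wt/eGFP) or knockouts (KO) with the eGFP allele on both chromosomes (Il23r eGFP/eGFP), so the controls carried 1 eGFP allele too. Spleen and colon LP had 2 libraries per genotype, numbered replicates 1 and 2, and small intestine LP and colon epithelium had 1 library per genotype, all numbered replicate 2. The labels do not say whether replicates came from separate animals, so p-values measure the spread between these samples, which may be technical. The sources used here do not give strain, age or whether the recipients had T cells of their own.

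Cells make cholesterol from acetyl-CoA through mevalonate, isoprenoid diphosphates, squalene and lanosterol. When sterols in the endoplasmic reticulum run low, SCAP escorts the SREBP transcription factors (encoded by Srebf1 and Srebf2) to the Golgi, where they are cut and released to switch on sterol and fatty acid genes. INSIG proteins hold SCAP back when sterols are plentiful, and Insig1 is itself an SREBP target. Activated and dividing T cells are known to raise this programme to build membranes, while LXR receptors answer oxysterols by raising efflux pumps such as Abca1 and Abcg1.

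The promoters of 4 members are printed because SREBP factors act on such genes together with the factor NF-Y, and because these 4 genes differed between tissues in different directions. Each is the 250 bases before the annotated start, from RefSeq on GRCm38.p6, written 5′ to 3′ along the gene. Capitals mark the CCAAT box that NF-Y binds, on either strand (ATTGG when reversed), and the core of the sterol regulatory element, searched as TCACNCCAC on either strand. The window of Hmgcs1 is chr13:119690101-119690350 on the plus strand, that of Insig1 chr5:28071162-28071411 on the plus strand, that of Cyp51 chr5:4104698-4104947 on the minus strand and that of Ebp chrX:8193513-8193762 on the minus strand.
Hmgcs1: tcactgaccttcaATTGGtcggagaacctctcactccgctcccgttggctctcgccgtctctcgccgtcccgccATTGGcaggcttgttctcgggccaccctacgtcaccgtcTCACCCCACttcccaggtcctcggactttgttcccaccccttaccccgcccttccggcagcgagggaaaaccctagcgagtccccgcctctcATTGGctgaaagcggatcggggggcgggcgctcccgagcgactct
Insig1: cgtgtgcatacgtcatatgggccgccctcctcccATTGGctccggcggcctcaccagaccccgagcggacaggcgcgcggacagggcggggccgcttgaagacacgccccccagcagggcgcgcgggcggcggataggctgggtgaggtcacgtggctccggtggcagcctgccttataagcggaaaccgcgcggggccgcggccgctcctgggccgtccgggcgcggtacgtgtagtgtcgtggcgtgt
Cyp51: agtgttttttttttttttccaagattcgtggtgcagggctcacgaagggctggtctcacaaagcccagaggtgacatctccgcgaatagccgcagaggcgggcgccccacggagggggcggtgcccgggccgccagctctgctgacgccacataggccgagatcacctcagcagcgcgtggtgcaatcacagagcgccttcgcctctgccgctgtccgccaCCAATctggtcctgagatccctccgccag
Ebp: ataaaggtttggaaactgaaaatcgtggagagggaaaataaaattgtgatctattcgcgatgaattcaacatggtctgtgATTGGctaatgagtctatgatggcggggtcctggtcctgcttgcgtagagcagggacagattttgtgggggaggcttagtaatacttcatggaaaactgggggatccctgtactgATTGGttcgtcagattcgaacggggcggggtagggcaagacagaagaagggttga
The Hmgcs1 sequence holds 3 CCAAT boxes and 1 sterol element core, whose first base lies 137 bases before the start. Insig1 and Cyp51 hold 1 CCAAT box each and Ebp holds 2, and the core as searched is not in these 3 sequences. Only that spelling of the core was searched, so sterol elements with other letters would be missed. Windows of 300 bases, from 250 before to 50 after each start, were found for 27 of the 35 members. A CCAAT box was present for 22 of these 27 members (81.5%) and in 65.7% of their 35 windows, against 37.4% of the 32851 windows of all genes. The sterol element core was present for 1 of 27 members and in 2.86% of their windows, against 1.24% of all windows. The E-box CACGTG, which SREBP factors can also bind, was present for 7 of 27 members and in 22.9% of their windows, against 7.15%. The direct repeat that LXR binds (DR4) was present for 0 of 27, against 0.0152% of all windows. In the printed sequences no marked motif overlaps another, and a match describes letters only.

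The matrix held 32763 cells, of which 29623 were CD3-positive, 764 to 3661 per library, with 1902990 to 13248318 UMIs per library. Median depth was 3938 to 5690 UMIs per cell in the 4 replicate 1 libraries and 2273 to 3033 in the 8 of replicate 2, and the batch number in the cell table equalled the replicate number in every cell. The small intestine KO library stood apart: 50.6% of its cells were CD3-positive, against 77.9% to 98.4% elsewhere. Of 32077 barcode sequences, 677 occurred in 2 or more libraries. On a scale of UMIs per 1000000 UMIs of the library (CPM), Cd4 ran from 199 to 386 CPM and Cd8a from 0.0758 to 18.3. A UMI of a marker of another lineage was found in 20.2% to 44.5% of CD3-positive cells per library. The share was 35.3% to 44.5% in the deeper replicate 1 libraries and 20.2% to 31.6% in replicate 2. The markers include genes such as Ccr7 that T cells can make too, so such a UMI does not show a cell of another kind. Il23r had 3 to 33 UMIs per library, 0.605 to 3.09 CPM in control and 0.314 to 4.20 in KO libraries. The sources used here do not say whether the eGFP allele removes the counted 3′ end, so these UMIs check nothing about the labels.

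Levels are given in CPM over the CD3-positive cells of each library. A UMI marks 1 transcript end, so CPM was not divided by gene length. Averaged over the 12 libraries, the highest members were Ebp (109 CPM), the isomerase that shifts a double bond late in the sterol pathway, and Fdps (94.4), which makes farnesyl diphosphate, the branch point towards sterols and prenylated proteins. Insig1 (59.2), the ATP citrate lyase gene Acly (58.7) and Hmgcs1 (56.7), the synthase that feeds the mevalonate steps, followed. Scd1, Abca1 and Fads2 averaged 0.256, 0.249 and 0.128 CPM and did not pass the filter on low counts, so 32 of the 35 members were tested in each comparison. The 35 members together summed to 895 to 972 CPM in spleen, 906 to 1031 in colon LP, 1156 to 1265 in small intestine LP and 1149 to 1301 in colon epithelium. Among tested members the highest library exceeded the lowest 10.2-fold for Insig1, 9.25-fold for Scd2 and 5.63-fold for Elovl6, and 1.63-fold for Sc5d, a late sterol desaturase with the narrowest range.

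**Figure D1:**
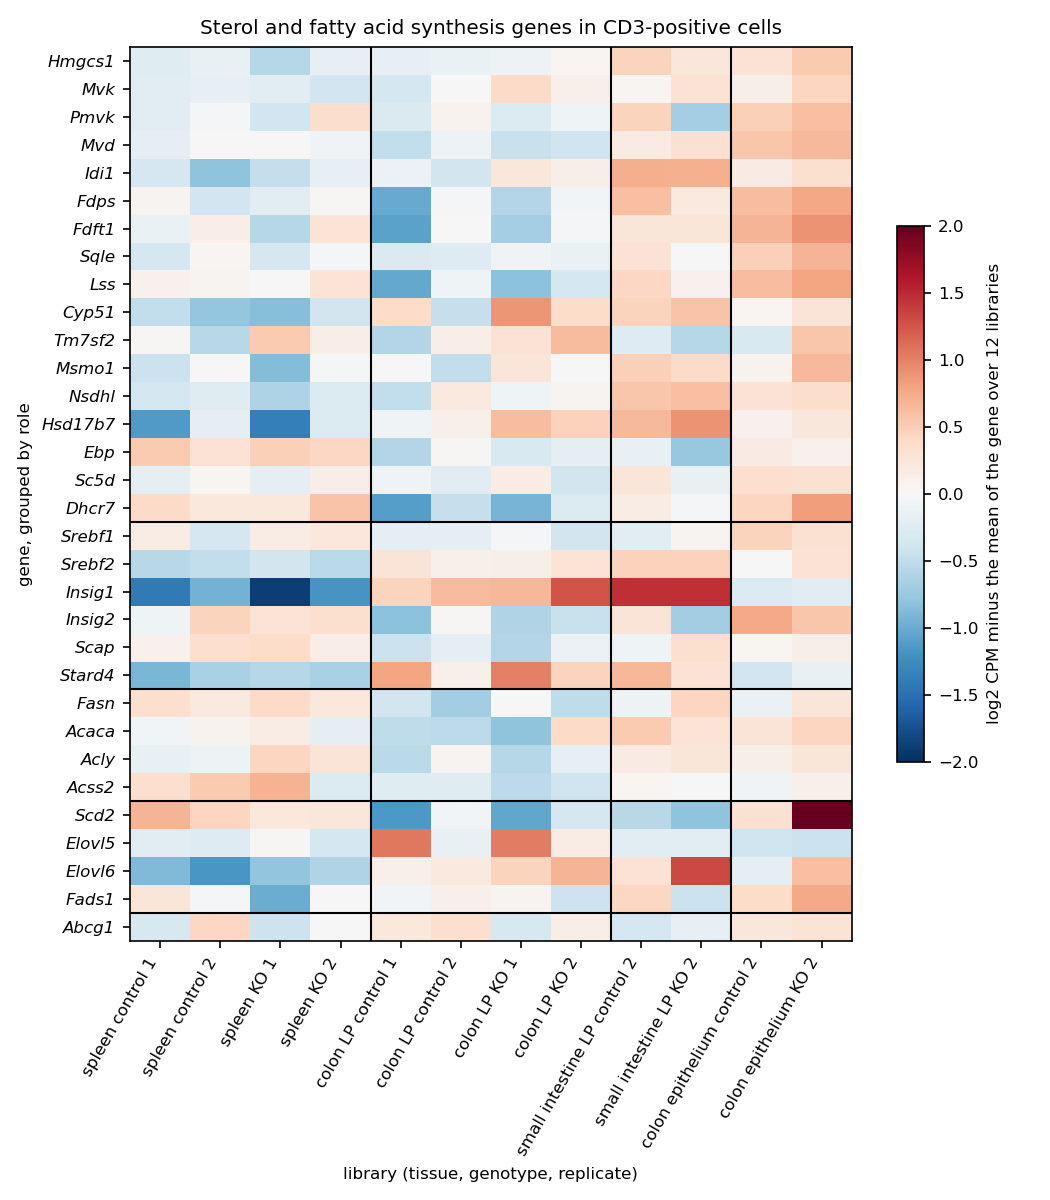
Heat map of the 32 tested members (rows, grouped by role) in the 12 libraries (columns, ordered by tissue), as log2 CPM minus the gene's mean over the libraries. Insig1 is low in all 4 spleen libraries (12.2 to 23.6 CPM) and high in both small intestine LP libraries (124 and 125 CPM), and Scd2 stands out in the colon epithelium KO library (42.0 CPM).

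Colon LP was compared with spleen over 8 libraries. The sensing and transport genes Insig1, Stard4 and Srebf2, the elongase Elovl6 and 5 sterol enzymes were higher in colon LP cells, while the late sterol enzymes Ebp and Dhcr7 and the desaturase Scd2 were lower. By edgeR's quasi-likelihood test with Benjamini-Hochberg adjustment over all genes tested, 12 of 32 members passed an adjusted p of 0.05, 9 higher and 3 lower. Of the 10976 genes tested, 29.7% passed in either direction, 16.6% higher and 13.1% lower, so the members' 37.5% lay close to that background. The median log2 fold change of the members was 0.21, against -0.00139 over all genes tested.

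Among genes of sterol sensing and transport, 3 of 6 rose. Insig1, whose protein holds SCAP in the endoplasmic reticulum, had the largest change of any member. In spleen it stood at 17.02 and 23.6 CPM in control replicates 1 and 2 and at 12.2 and 19.9 in KO replicates 1 and 2, and in colon LP, in the same order, at 61.9, 70.2, 71.7 and 108 CPM. The lowest colon LP library was above the highest spleen library, and the log2 fold change was 2.33 ± 0.19 (SE; adjusted p = 0.000182). Stard4, a carrier that moves cholesterol between membranes, stood at 15.6, 18.8, 19.8 and 18.7 CPM in spleen and at 50.4, 31.5, 58.8 and 39.8 in colon LP in that order (1.59 ± 0.25, adjusted p = 0.00361). Srebf2, the SREBP gene tied mostly to sterol synthesis, stood at 29.4, 30.5, 33.2 and 29.6 CPM in spleen and at 51.6, 45.9, 46.6 and 52.1 in colon LP (0.94 ± 0.15, adjusted p = 0.00308). The tissues did not overlap for either gene. The related genes Srebf1 (0.02 ± 0.20), Insig2 (-0.44 ± 0.17) and Scap (-0.30 ± 0.16) did not pass. With the replicate number as a block, Insig2 passed lower (-0.43 ± 0.15, adjusted p = 0.0435), while Scap (-0.30 ± 0.16, adjusted p = 0.161) and Srebf1 (0.01 ± 0.15, adjusted p = 0.956) did not; Insig2 and Scap were lower in colon LP in 4 of 4 pairs of the same genotype and replicate.

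**Figure D2:**
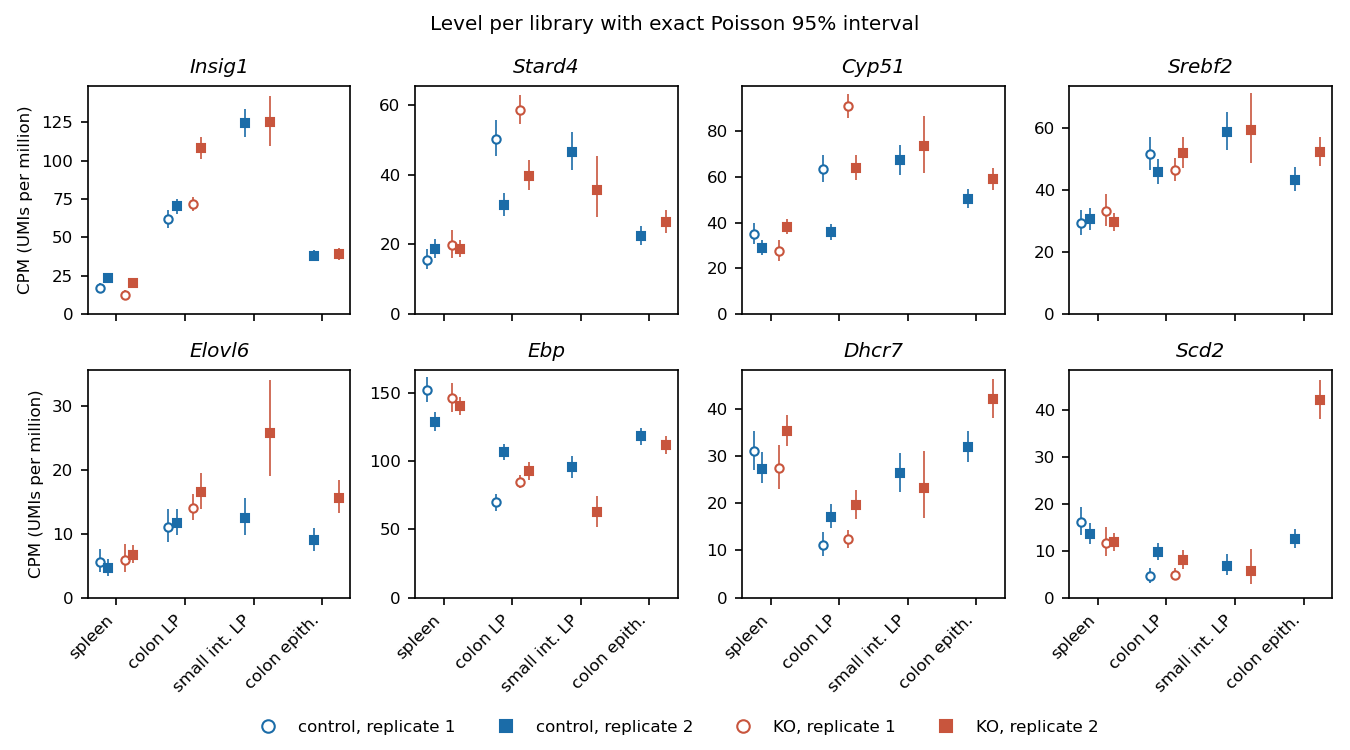
CPM of 8 members (vertical axes, from 0) by tissue, with exact Poisson 95% intervals for counting error; circles are replicate 1, squares replicate 2, blue control and red KO. Spleen and colon LP libraries do not overlap for Insig1, Stard4, Srebf2, Elovl6, Ebp, Dhcr7 and Scd2, while for Cyp51 colon LP control replicate 2 (35.9 CPM) lies within the spleen range.

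Of the 17 sterol enzymes, 5 rose in colon LP, 2 fell and 10 did not pass. Cyp51, the lanosterol demethylase, stood at 35.02, 28.8, 27.5 and 38.3 CPM in spleen and at 63.5, 35.9, 90.95 and 63.8 in colon LP (1.22 ± 0.28, adjusted p = 0.0163). Colon LP control replicate 2 was the library that fell within the spleen range. Hsd17b7 and Nsdhl act together in taking methyl groups off the sterol ring. Hsd17b7 stood at 3.49, 6.66, 2.96 and 6.29 CPM in spleen and at 7.24, 8.20, 11.7 and 10.5 in colon LP, without overlap (1.17 ± 0.28). Nsdhl stood at 19.4, 21.1, 16.2 and 20.6 CPM in spleen and at 17.8, 28.6, 23.3 and 25.7 in colon LP, with overlap (0.55 ± 0.15). Idi1 and Hmgcs1 act early, Idi1 in turning the isoprenoid unit into its reactive form. Idi1 stood at 33.8, 24.4, 30.6 and 37.7 CPM in spleen and at 38.9, 32.9, 49.6 and 46.1 in colon LP (0.66 ± 0.19), and Hmgcs1 at 46.7, 50.1, 37.1 and 49.4 and at 49.3, 50.6, 51.6 and 56.9 (0.44 ± 0.13). Both were higher in 4 of 4 pairs of the same genotype and replicate, with overlapping ranges.

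Both enzymes that fell act late. Ebp stood at 152, 129, 146 and 141 CPM in spleen and at 69.9, 107, 85.1 and 92.6 in colon LP (-0.44 ± 0.14, adjusted p = 0.0422). Dhcr7, the reductase that makes cholesterol from its last precursor, stood at 30.97, 27.3, 27.5 and 35.2 CPM in spleen and at 11.1, 17.2, 12.4 and 19.5 in colon LP (-0.77 ± 0.18, adjusted p = 0.0142). The tissues did not overlap for either enzyme. Among enzymes that did not pass were Fdps (-0.01 ± 0.20), the squalene epoxidase gene Sqle (0.23 ± 0.15) and the lanosterol synthase gene Lss (-0.40 ± 0.22).

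Of the fatty acid genes, Elovl6, which lengthens saturated fatty acids of palmitate size, stood at 5.58, 4.57, 5.93 and 6.75 CPM in spleen and at 11.1, 11.7, 14.04 and 16.5 in colon LP (1.47 ± 0.18, adjusted p = 0.00104). Scd2, which puts a double bond into saturated fatty acids, stood at 16.2, 13.5, 11.7 and 11.8 CPM in spleen and at 4.54, 9.70, 4.91 and 7.96 in colon LP (-0.73 ± 0.23, adjusted p = 0.0465). The tissues did not overlap for either gene, in opposite directions. Of the 4 fatty acid synthesis genes 0 passed. Acly, which makes cytosolic acetyl-CoA from citrate, stood at 52.04, 53.7, 77.6 and 68.5 CPM in spleen and at 39.5, 59.9, 38.9 and 51.4 in colon LP (-0.15 ± 0.14), and the synthase gene Fasn differed by -0.38 ± 0.24. Elovl5, an elongase of polyunsaturated fatty acids, stood at 44.1, 42.5, 51.6 and 39.8 CPM in spleen and at 106, 45.9, 103 and 56.7 in colon LP. Its 2 high libraries were those of replicate 1, and it did not pass (1.11 ± 0.37), whereas with the replicate number as a block it passed higher (0.98 ± 0.22, adjusted p = 0.0101). The efflux pump gene Abcg1 ran from 13.2 to 23.6 CPM in spleen and from 14.2 to 22.04 in colon LP and did not pass (0.40 ± 0.19).

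The split between higher and lower members depended on the scaling. TMM, the trimmed-mean scaling behind these fold changes, left the median of all genes near 0, whereas plain library totals set it at -0.25 in colon LP against spleen. On library totals 12 members also passed, 6 higher (Insig1, Stard4, Srebf2, Cyp51, Elovl6 and Hsd17b7) and 6 lower (Ebp, Dhcr7, Scd2, Insig2, Acss2 and Fasn), against 31.8% of all genes tested, 10.9% higher and 20.8% lower. Insig1 then had a log2 fold change of 2.08, and Idi1, Nsdhl and Hmgcs1 kept their direction without passing. Among all genes called, 34.4% were higher on library totals and 55.95% with TMM.

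Within replicate 1 alone 18 of 32 members passed, against 42.7% of 10287 genes tested there. Within replicate 2 alone 4 did, against 14.7% of 10703 genes: Insig1 (2.18), Elovl6 (1.49), Stard4 (1.08) and Srebf2 (0.87). These 4 genes passed in all 22 alternative fits of this comparison. The count of 12 fell to 6 without spleen control replicate 1 (15.5% of all genes), to 7 without spleen KO replicate 1 (21.2% of all genes), to 4 without colon LP KO replicate 1 (16.9% of all genes) and to 6 without spleen control replicate 2 (17.3% of all genes). With the replicate number as a block 15 passed, 11 higher and 4 lower, against 39.9% of all genes, Insig2, Mvk and Elovl5 joining the 12.

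Markers of cell division and of other cell types also differed between these tissues. The 15 cell-cycle genes summed to 796 to 1952 CPM in spleen and 153 to 704 in colon LP, and in cells that were not cycling 10 members passed against 30.6% of all genes, with Insig1 at 2.34. The 14 epithelial markers summed to 3.79 to 8.89 CPM in spleen and 15.1 to 76.1 in colon LP, and the 12 macrophage markers to 27.04 to 154 and 13.5 to 36.1. In cells without UMIs of other lineages 9 members passed against 26.4%, with Insig1 at 2.32. The 7 erythroid genes summed to 1509 CPM in colon LP control replicate 1 and to 0.362 to 218 in the other 7 libraries, and without that library 8 members passed against 21.0%, with Insig1 at 2.30. Fewer cells with a transcript and less of it per cell cannot be told apart in these sums.

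Genes around the pathway were read from lists chosen by function. Of 16 growth and mTORC1-related genes, 7 rose in colon LP and 0 fell, with Slc3a2, a subunit of amino acid transporters (2.38 ± 0.26), Odc1, the first enzyme of polyamine synthesis (4.56 ± 0.47), and the transferrin receptor gene Tfrc (2.13 ± 0.29) at the smallest p. Of 19 other sterol and isoprenoid genes, 4 rose and 3 fell, among them Lbr, a sterol reductase of the nuclear envelope (-0.73 ± 0.15), Nus1, a subunit of the enzyme that starts dolichol synthesis (0.78 ± 0.18), and Aacs, which activates acetoacetate (-0.77 ± 0.19). Of 16 genes of LXR and cholesterol handling, the oxysterol receptor gene Gpr183 rose (1.91 ± 0.24) and the lysosomal lipase gene Lipa fell (-0.57 ± 0.16). Of 21 other fatty acid and lipid assembly genes, 3 rose and 8 fell, with Mcat of mitochondrial fatty acid synthesis (-1.45 ± 0.21), the elongase Elovl7 (-2.95 ± 0.45) and the acyl-CoA synthetase Acsl5 (-0.80 ± 0.14) at the smallest p. Of 15 fatty acid oxidation genes, Acadl rose (0.69 ± 0.13) and Cpt2 fell (-1.31 ± 0.25).

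The other tissues were compared within the 8 replicate 2 libraries, where each tissue had 1 control and 1 KO library and genotype was a term of the fit. In small intestine LP against spleen, 12 of 32 members passed, 11 higher and 1 lower, against 23.2% of 11155 genes tested (13.4% higher and 9.78% lower). The members' median log2 fold change was 0.27, against 0.00206 over all genes. Insig1 stood at 124 and 125 CPM in the control and KO libraries of the small intestine, its highest levels, against 23.6 and 19.9 in spleen (2.65 ± 0.23, adjusted p = 0.000228). Stard4 stood at 46.6 and 35.7 CPM against 18.8 and 18.7 (1.30 ± 0.19), and Srebf2 at 58.96 and 59.4 against 30.5 and 29.6 (1.12 ± 0.14). All 3 sensing and transport genes that rose in colon LP rose here too, in a comparison that shares the replicate 2 spleen libraries with it. Elovl6 stood at 12.5 and 25.7 CPM against 4.57 and 6.75 (1.82 ± 0.22, adjusted p = 0.000783).

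Of the 17 sterol enzymes, 7 rose in small intestine LP and 1 fell. Idi1 stood at 70.00 and 69.4 CPM against 24.4 and 37.7 in spleen (1.34 ± 0.18, adjusted p = 0.00138). Fdps stood at 135 and 102 CPM against 68.1 and 91.03 (0.73 ± 0.18), and Hmgcs1 at 75.04 and 65.2 against 50.1 and 49.4 (0.64 ± 0.14). These 3 enzymes act before squalene, and the other 4 that rose act after it. Cyp51 stood at 67.2 and 73.6 CPM against 28.8 and 38.3 (1.23 ± 0.19), and Hsd17b7 at 12.02 and 14.2 against 6.66 and 6.29 (1.13 ± 0.23). Nsdhl stood at 36.5 and 37.8 CPM against 21.1 and 20.6 (0.96 ± 0.14), and Msmo1, the sterol methyl oxidase, at 66.6 and 62.5 against 47.5 and 47.1 (0.60 ± 0.19). Ebp fell, at 95.5 and 62.5 CPM against 129 and 141 (-0.64 ± 0.17, adjusted p = 0.0267). In each of these 8 enzymes the 2 small intestine libraries did not overlap the 2 of spleen. They were named because they passed on these same libraries, so this adds no support. The share of all genes without overlap was not computed.

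Without the small intestine control library, 7 of 33 members passed, against 9.76% of all genes. Over all 12 libraries with the replicate number as a block 10 passed, without Fdps (0.51 ± 0.23, adjusted p = 0.129) and Msmo1 (0.81 ± 0.30, adjusted p = 0.0755), against 26.7%. The epithelial markers summed to 14.2 to 150 CPM in the 2 small intestine libraries and the cell-cycle genes to 183 to 452, and 11 members passed in cells without UMIs of other lineages (25.6% of all genes) and 15 in cells that were not cycling (27.6%). On library totals 11 passed, 10 higher and 1 lower, against 26.5% of all genes (11.1% higher and 15.3% lower), the median of all genes was -0.13, and 42.1% of all called genes were higher instead of 57.8%. Of the growth genes, Odc1 (3.31 ± 0.18) and Slc3a2 (2.40 ± 0.20) rose. Of 22 other fatty acid and lipid assembly genes, 3 rose and 6 fell, with Dgat1, which completes triglycerides, at the smallest p (2.99 ± 0.24). Of 16 genes of LXR and cholesterol handling, Gpr183 (1.75 ± 0.30) and the cholesterol esterifying Soat2 (0.99 ± 0.21) rose, and Mylip, the LXR target that degrades lipoprotein receptors, fell (-1.38 ± 0.24).

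Against colon LP, small intestine LP had 0 of 32 members past the threshold by edgeR, which called 1 of 11155 genes (0.00896%). At an unadjusted p under 0.05 there were 11 members, and the smallest adjusted p was that of Idi1 (0.83 ± 0.18, adjusted p = 0.216). Idi1 stood at 70.00 and 69.4 CPM in small intestine LP and at 32.9 and 46.1 in colon LP of replicate 2. DESeq2 called 1 member, Idi1, among 98 genes, and edgeR on cells that were not cycling also called Idi1 alone among the members. Of the members 27 had positive and 5 negative estimates, with a median of 0.31 against 0.00238 over all genes. A p that misses the threshold does not show that the tissues were alike.

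**Figure D3:**
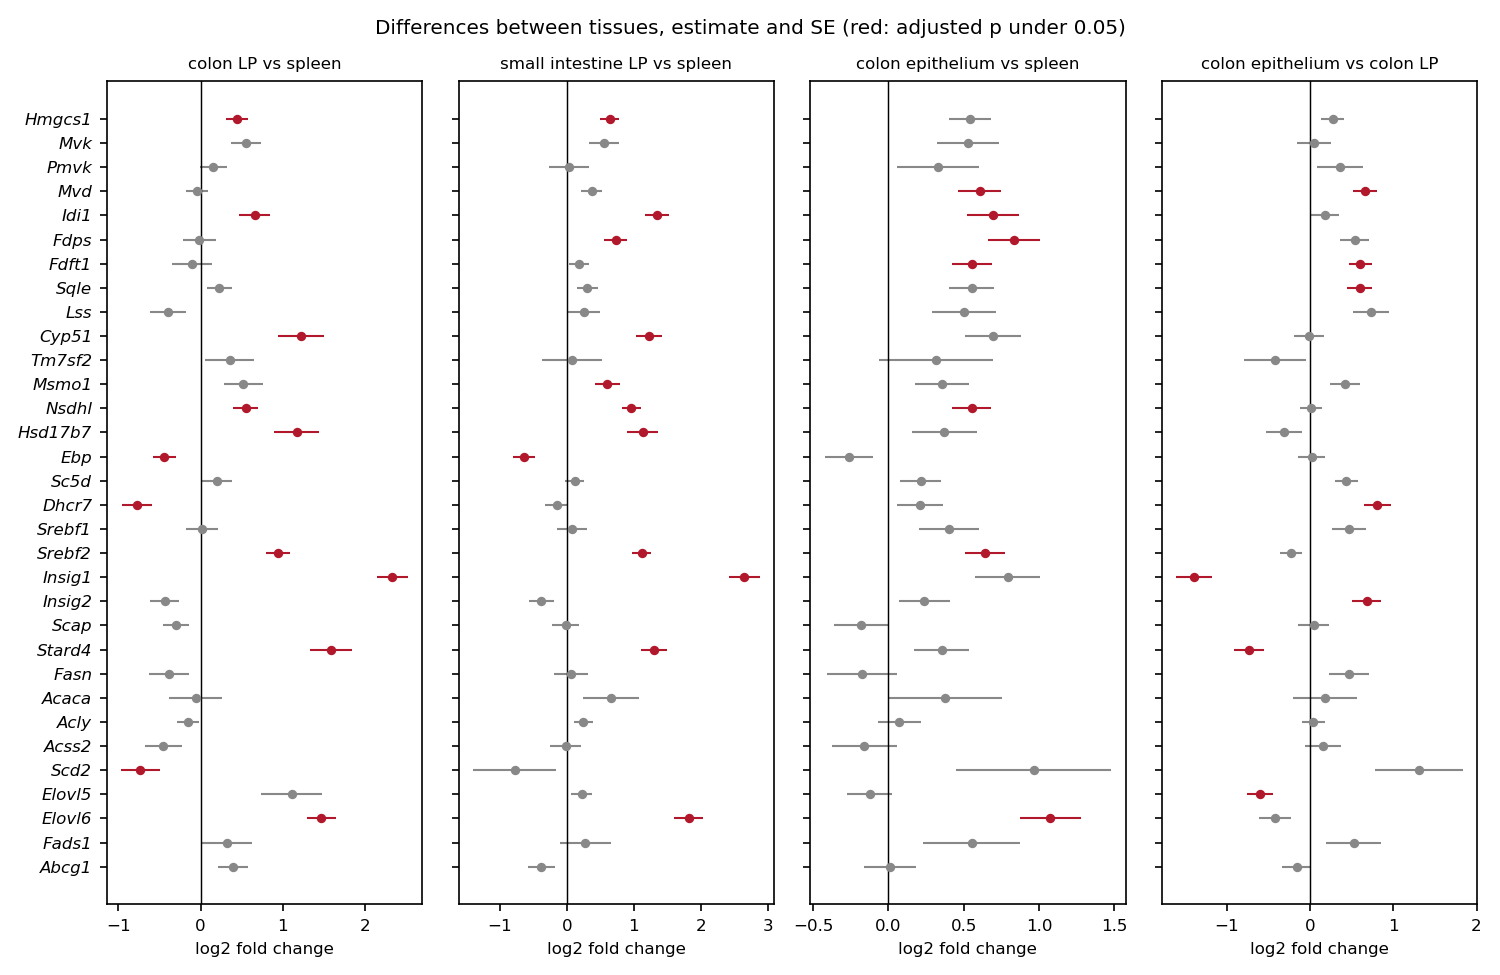
Log2 fold changes with SE (horizontal axes) of the 32 tested members in 4 tissue comparisons; red points passed an adjusted p of 0.05. Insig1 is the highest estimate in both lamina propria comparisons with spleen (2.33 and 2.65) and the lowest in colon epithelium against colon LP (-1.40).

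In the colon epithelium, T cells had higher levels of 4 enzymes on the way from mevalonate to squalene than in spleen, Mvd, Idi1, Fdps and Fdft1. Against spleen 7 of 32 members passed, all higher, against 7.01% of 11155 genes (4.34% higher and 2.67% lower), and the members' median was 0.39 against 0.00202 over all genes. Fdps stood at 136 and 152 CPM in the control and KO epithelial libraries, against 68.1 and 91.03 in spleen (0.84 ± 0.17, adjusted p = 0.0236). Fdft1, the squalene synthase gene, stood at 31.7 and 36.9 CPM against 21.8 and 24.03 (0.56 ± 0.13). Mvd, which ends the mevalonate steps, stood at 37.8 and 40.04 CPM against 25.8 and 24.4 (0.61 ± 0.14). For these 3 genes both epithelial libraries were above both spleen libraries, and the KO library held the highest level of all 12 libraries. Idi1 stood at 47.5 and 53.1 CPM against 24.4 and 37.7 (0.70 ± 0.17), and Nsdhl at 30.3 and 31.9 against 21.1 and 20.6 (0.55 ± 0.13). Srebf2 stood at 43.4 and 52.3 CPM against 30.5 and 29.6 (0.64 ± 0.13), and Elovl6 at 8.99 and 15.6 against 4.57 and 6.75 (1.08 ± 0.20). These 4 did not overlap between the tissues either. All 7 were named because they passed on these same libraries, so the lack of overlap adds no support.

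The count of 7 rested on few libraries: it was 0 without the epithelial KO library, 1 without the spleen KO, 2 without the epithelial control, and 3 without the spleen control, the small intestine control or the small intestine KO. The share of all genes in these fits was 3.20% without the epithelial KO library and 3.76% to 9.72% in the others. The 14 epithelial markers summed to 611 CPM in the epithelial KO library and 40.3 in the epithelial control. All 14 had higher estimates than in spleen (median log2 fold change 8.81), and 13 of 14 than in colon LP (2.57). The 2 epithelial libraries differed widely, and 0 of the 14 passed in either comparison. The 12 macrophage markers summed to 5.45 and 12.8 CPM in the control and KO epithelial libraries, with 8 of the 12 genes at 0 in each, and to 27.04 to 45.9 in the replicate 2 spleen libraries. Of the 6 macrophage markers tested 4 were lower in epithelium than in spleen, and of the 8 T cell markers tested 2 were higher and 1 lower. In cells without UMIs of other lineages 4 members passed, against 8.92% of 10531 genes. The part of these other cells in the tissue differences was not tested further. On library totals 10 passed, Cyp51, Insig1 and Hmgcs1 joining the 7, against 7.55% of all genes. Over all 12 libraries with the replicate number as a block 7 passed against 7.91%: Mvd, Idi1, Srebf2 and Elovl6 did again, Insig1 (0.84 ± 0.21, adjusted p = 0.0280), Hmgcs1 (0.60 ± 0.15, adjusted p = 0.0324) and Sqle (0.65 ± 0.16, adjusted p = 0.0276) passed higher, and Fdps (0.63 ± 0.23, adjusted p = 0.123), Fdft1 (0.50 ± 0.17, adjusted p = 0.102) and Nsdhl (0.53 ± 0.15, adjusted p = 0.0530) did not pass.

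Against colon LP, the epithelium differed in 8 of 32 members, 5 higher and 3 lower, against 12.2% of 11155 genes (4.63% higher and 7.57% lower). Insig1 stood at 37.7 and 38.9 CPM in the epithelium and at 70.2 and 108 in colon LP of replicate 2 (-1.40 ± 0.21, adjusted p = 0.00704). Stard4 stood at 22.5 and 26.4 CPM against 31.5 and 39.8 (-0.73 ± 0.18), and Elovl5 at 38.7 and 38.05 against 45.9 and 56.7 (-0.60 ± 0.15). These were the 3 members that fell, and their libraries did not overlap between the tissues. Dhcr7 stood at 31.8 and 42.03 CPM against 17.2 and 19.5 (0.81 ± 0.16, adjusted p = 0.0143). Insig2, the second gene for a protein that holds SCAP back, stood at 45.9 and 40.04 CPM against 27.7 and 19.9 (0.68 ± 0.18), so the 2 INSIG genes moved in opposite directions. Mvd stood at 37.8 and 40.04 CPM against 23.8 and 19.4 (0.66 ± 0.14), and Fdft1 at 31.7 and 36.9 against 20.01 and 19.5 (0.60 ± 0.14). Sqle stood at 43.8 and 50.7 CPM against 26.3 and 28.6 (0.60 ± 0.15). The libraries of these 5 did not overlap either. All 8 were named because they passed on these same libraries, so the lack of overlap adds no support.

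The count of 8 was 0 without the epithelial KO library, 1 without the colon LP KO and 3 without the control of the one or the other tissue, against 2.79%, 1.88%, 4.71% (colon LP control) and 7.36% (epithelial control) of all genes. Markers of other cell types moved with this comparison too: of the 6 macrophage markers tested 4 were lower in epithelium, with a median log2 fold change of -5.45 over the 6, and both stromal and endothelial markers tested were lower (median -3.25). The 12 macrophage markers summed to 23.3 to 27.1 CPM in colon LP of replicate 2 and the 8 stromal and endothelial markers to 39.1 to 54.7, against 26.9 to 34.7 for the latter in epithelium. Of the 8 T cell markers tested 0 passed higher and 2 lower. Of the 14 epithelial markers 0 passed, though 13 had higher estimates in epithelium (median log2 fold change 2.57). In cells without UMIs of other lineages 9 members passed, 6 higher and 3 lower, against 14.1% of 10531 genes. Over all 12 libraries with the replicate number as a block 9 passed against 15.6%, Lss (0.84 ± 0.21, adjusted p = 0.0209) and Scd2 (1.60 ± 0.44, adjusted p = 0.0398) higher, while Sqle (0.47 ± 0.16, adjusted p = 0.0715) did not pass. On library totals, which set the median of all genes at 0.20, 10 members passed, 9 higher and 1 lower, against 15.9% of all genes (10.5% higher and 5.38% lower), the one lower being Insig1 (-1.20), and 66.2% of all called genes were higher instead of 37.9%. Of the other sterol genes Aacs (1.23 ± 0.20) and the acetoacetyl-CoA thiolase gene Acat2 (1.24 ± 0.20) rose. Of 16 growth genes 4 fell and 0 rose, with Odc1 at the smallest p (-3.08 ± 0.18), and Gpr183 fell (-2.05 ± 0.30).

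The high Scd2 level of the epithelial KO library, 42.03 CPM against 12.4 in the epithelial control, came from few cells. Of its 401 Scd2 UMIs, 277 (69.1%) lay in 8 cells with 5 or more each, and all 8 also carried a UMI of another lineage. In cells without such UMIs Scd2 stood at 10.7 CPM in the KO library and 11.3 in the control.

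The genotype comparisons asked whether Th1 cells without the IL-23 receptor differed from controls in these genes. By edgeR 0 of 32 members passed in colon LP, in spleen, in the difference between those effects and over all 6 library pairs with tissue as a term. The background was 0% of 10976 genes in the first 3 of these and 0% of 11305 genes in the last. At an unadjusted p under 0.05 there were 123, 128, 114 and 525 genes, with 0, 1, 0 and 2 members among them. DESeq2 called 0, 3, 2 and 3 genes, and edgeR without a filter on low counts 83, 70, 68 and 6, with 0 members in each.

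Over all tissues the member with the smallest p was Elovl6. Its control and KO libraries stood at 5.58 and 5.93 CPM in spleen replicate 1, 4.57 and 6.75 in spleen replicate 2, 11.1 and 14.04 in colon LP replicate 1 and 11.7 and 16.5 in colon LP replicate 2. They stood at 12.5 and 25.7 CPM in the small intestine and at 8.99 and 15.6 in the epithelium. KO was thus above control in 6 of 6 pairs, while the genotypes overlapped across tissues. The log2 fold change was 0.56 ± 0.14, with an unadjusted p of 0.00170 and an adjusted p of 1 by edgeR, so it failed the correction over all genes. Fasn, at 4.32 to 9.46 CPM over the libraries, was also above control in 6 of 6 pairs. The 95% interval of each pair's ratio for Fasn, which covers counting error only, included 1. The share of all genes above control in 6 of 6 pairs was not computed, so for both genes this order is a description only. The next members by p were Tm7sf2, a sterol reductase gene (0.56 ± 0.23), and Idi1 (0.24 ± 0.13).

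Insig1 had estimates of opposite sign in the tissues. Control and KO stood at 61.9 and 71.7 CPM in colon LP replicate 1 and at 70.2 and 108 in replicate 2 (0.46 ± 0.25), and at 17.02 and 12.2 in spleen replicate 1 and 23.6 and 19.9 in replicate 2 (-0.34 ± 0.26). The difference between these effects was 0.80 ± 0.36, with an unadjusted p of 0.0547 and an adjusted p of 1 by edgeR, so it failed the correction. In colon LP the others with the smallest p were Elovl6 (0.45 ± 0.24) and the mevalonate kinase gene Mvk (0.47 ± 0.25). In spleen they were Acly, at 52.04 and 77.6 CPM in replicate 1 and 53.7 and 68.5 in replicate 2 (0.45 ± 0.19), and Tm7sf2 (0.55 ± 0.43). Of the 32 members, 25 were above control in colon LP replicate 1 and 17 in replicate 2, 15 in each spleen replicate, 14 in the small intestine and 27 in the epithelium. These counts are of plain CPM ratios without TMM. The share of all genes above control in each pair was not computed, so the counts cannot be read as a result about the members.

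**Figure D4:**
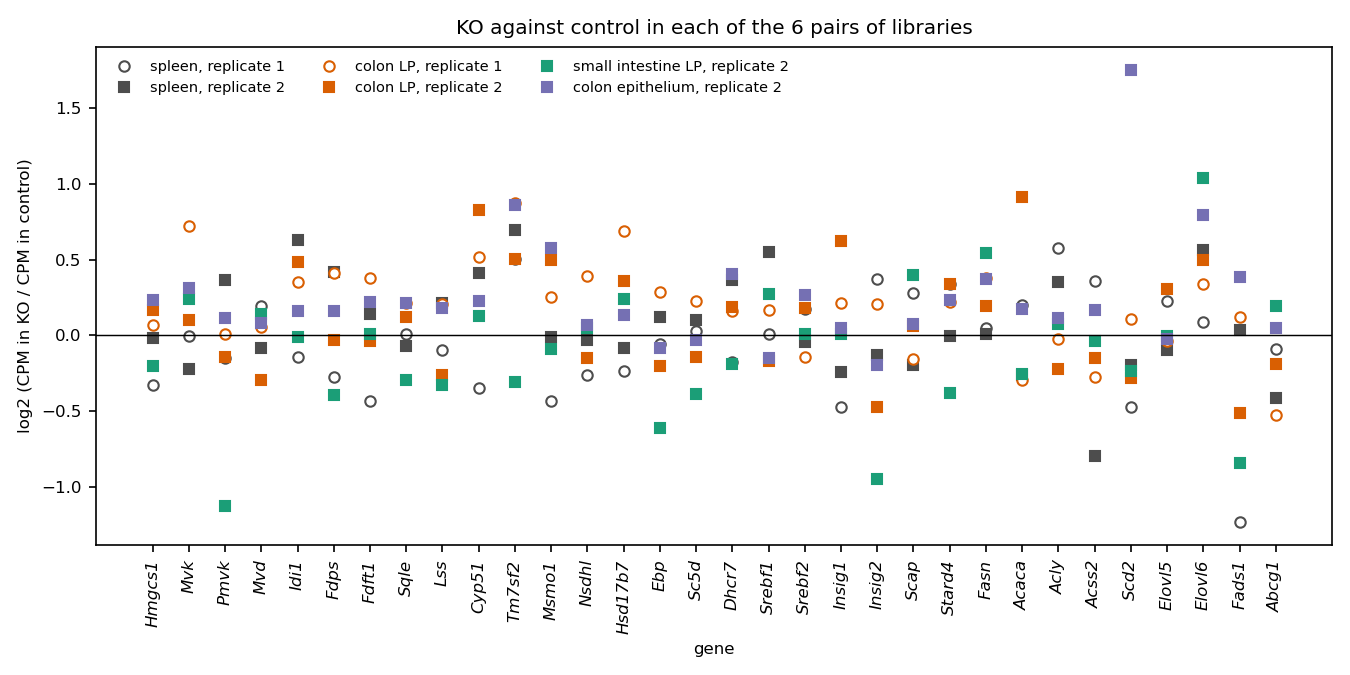
Log2 ratio of KO to control CPM (vertical axis) of the 32 tested members (horizontal axis) in each of 6 library pairs, by tissue and replicate. Points lie on both sides of 0 for most genes, while all 6 points of Elovl6 and of Fasn lie above 0. The share of all genes with 6 points above 0 was not computed.

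Dividing cells were compared with the rest of the same libraries. Cycling cells were those with 3 or more UMIs over 15 cell-cycle genes, none of them a member: 2623 of 29623 cells (8.85%), 1.60% to 21.2% per library. The small intestine KO library held 13 of them, so its levels in cycling cells rest on few UMIs and can set the ends of the ranges below. At the threshold itself lay 315 cells, and 4889 other cells had 1 or 2 such UMIs. Of 32 members 19 passed, 16 higher and 3 lower in cycling cells, against 56.5% of 10316 genes (25.2% higher and 31.3% lower). The members' median log2 fold change was 0.38, against -0.07 over all genes.

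Of the 17 sterol enzymes, 12 were higher in cycling cells and 0 lower. Fdps ran from 97.5 through a median of 158 to 313 CPM in cycling cells and from 38.8 through 78.4 to 130 in other cells, and was higher in 12 of 12 libraries (1.02 ± 0.14, adjusted p = 2.14e-05). Pmvk, the second kinase of the mevalonate steps, ran from 12.5 through a median of 43.2 to 78.5 CPM in cycling cells and from 13.7 through 20.5 to 31.02 in other cells, and was higher in 11 of 12 libraries (0.89 ± 0.10, adjusted p = 2.52e-08). The ranges of the classes overlapped across libraries for both genes, so the order holds within libraries. Idi1 (0.88 ± 0.14), Ebp (0.38 ± 0.06) and Sc5d (0.30 ± 0.07) were higher in 12 of 12 libraries. Lss (0.71 ± 0.16), Sqle (0.61 ± 0.10), Hmgcs1 (0.48 ± 0.08), Cyp51 (0.46 ± 0.10), Fdft1 (0.46 ± 0.12) and Dhcr7 (0.28 ± 0.09) were higher in 11 of 12, and Mvk (0.47 ± 0.14) in 9 of 12.

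Insig1, which varied most between tissues, was higher in cycling cells in 7 of 12 libraries and did not pass (0.10 ± 0.12). Of the sensing and transport genes, Stard4 (0.52 ± 0.10) and Srebf1 (0.45 ± 0.11) passed higher. Of the desaturases and elongases, Fads1, which works on polyunsaturated fatty acids (1.17 ± 0.21), and Scd2 (1.23 ± 0.35) passed higher and Elovl6 lower (-0.44 ± 0.18, adjusted p = 0.0391). Over 21 alternative fits Elovl6 ran from -0.61 to -0.22, and in 11 of them it no longer passed. Abcg1, the efflux pump gene, ran from 5.64 through a median of 10.8 to 25.1 CPM in cycling cells and from 14.6 through 20.4 to 25.3 in other cells, and was lower in 11 of 12 libraries (-0.97 ± 0.13, adjusted p = 1.86e-07). Acss2, which makes acetyl-CoA from acetate, was lower in 10 of 12 libraries (-0.68 ± 0.12). Scd2 stood at 219 CPM in the cycling cells of the epithelial KO library and at 17.5 in its other cells, and without that library its log2 fold change was 0.79.

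Depth differed with the classes: median UMIs per cell were 5460 to 11741 in cycling and 2263 to 5047 in other cells. A UMI of another lineage was found in 19.1% to 64.9% of cycling cells and 19.7% to 43.6% of other cells. Markers moved with the classes as well. All 8 T cell markers tested were lower in cycling cells (median log2 fold change -0.56), and their sum ran from 4177 to 5113 CPM in cycling and 5241 to 7742 in other cells. Of the 14 epithelial markers 3 were higher and 1 lower, with a sum of 0 to 2659 CPM in cycling and 4.29 to 328 in other cells, higher in cycling cells in 4 of 12 libraries. The 12 macrophage markers summed to 0 to 411 CPM in cycling and 5.50 to 52.8 in other cells, and the 8 ILC and NK markers, of which 3 of 7 tested were lower, to 61.2 to 348 CPM in cycling and 274 to 566 in other cells. In cells without UMIs of other lineages 16 of 31 members passed, 14 higher and 2 lower, against 52.2% of 9219 genes (21.4% higher and 30.7% lower), with Fdps at 0.94 and Abcg1 at -1.09.

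With every cell thinned to 2000 UMIs, which left out 6277 shallower cells, 10 of 31 members tested passed, 8 higher (Hmgcs1, Pmvk, Idi1, Fdps, Cyp51, Ebp, Scd2 and Fads1) and 2 lower (Abcg1 and Acss2), against 46.3% of 8846 genes (17.3% higher and 29.0% lower). Fdps then stood at 1.02 and Abcg1 at -1.06 on the log2 scale. Cells kept the class set by their cell-cycle UMIs before thinning, so class membership could still depend on depth. In the 4 replicate 1 libraries alone 7 of 30 members tested passed, against 26.4% of 9452 genes. Of 18 other sterol and isoprenoid genes 6 were higher and 3 lower in cycling cells, with Lbr at the smallest p (1.10 ± 0.06). Of 20 other fatty acid and lipid assembly genes 7 were higher and 2 lower, with Dbi, which binds acyl-CoA, at the smallest p (1.41 ± 0.06). Of 16 genes of LXR and cholesterol handling 3 were higher and 6 lower, with Gpr183 at the smallest p (-0.74 ± 0.07).

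**Figure D5:**
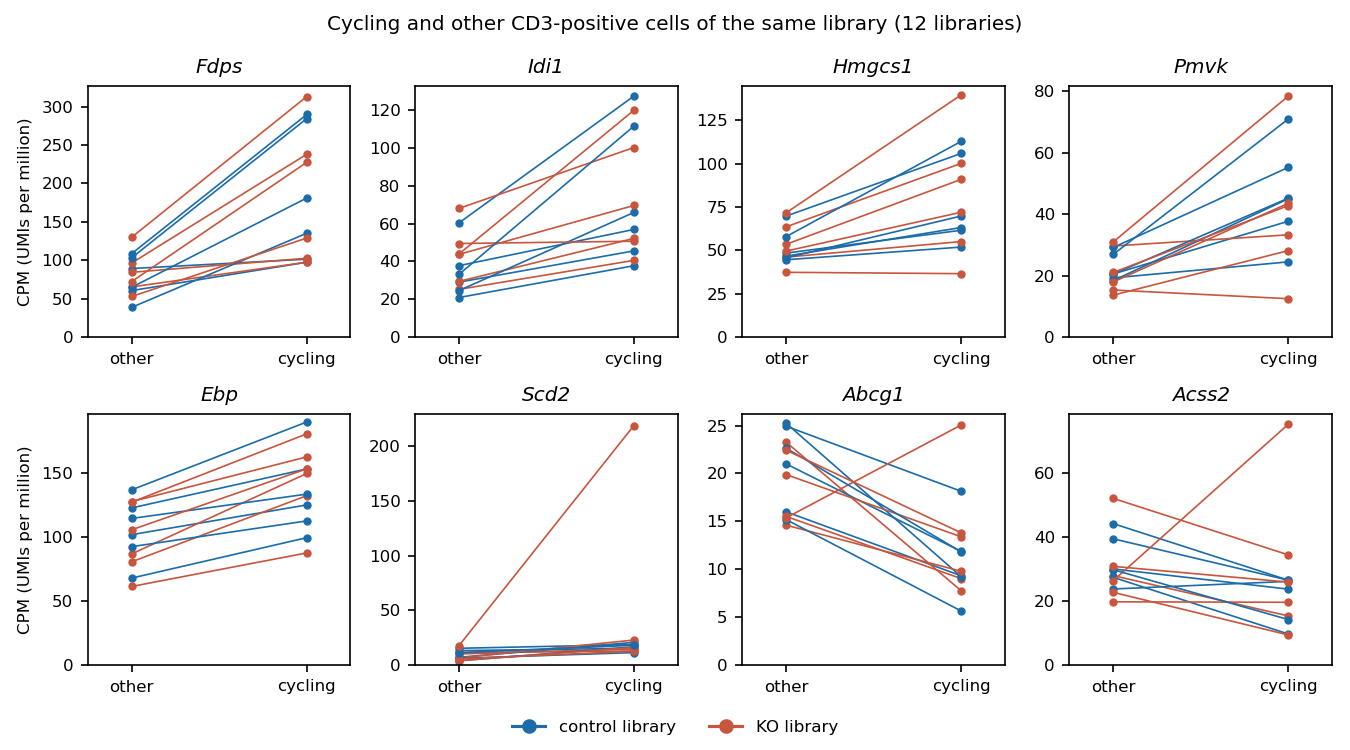
CPM (vertical axes, from 0) of 8 members in the other and the cycling CD3-positive cells, with 1 line per library. All 12 lines rise for Fdps, Idi1, Ebp and Scd2, 11 of 12 fall for Abcg1, and the steep Scd2 line is the colon epithelium KO library (219 CPM in cycling cells).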

How the data were processed

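The deposited values are UMI counts per gene and cell, from droplet 3′ single-cell libraries per the labels' protocols. Cell Ranger 2.0.2 and mm10 are named in the submitters' processing notes. The sources used here do not give how the authors filtered cells, used strand or counted near-identical gene copies. Groups came from the labels, and 2 further per-sample columns of the cell table were not used. The 20 repeated symbols were told apart by identifier. The members, gene lists and tests were chosen with earlier results of these data known.

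UMIs were summed per library over CD3-positive cells, and no doublet caller was run. Other-lineage UMIs were those of marker lists of other cell classes, Ccr7 and Pecam1 among them, leaving out abundant genes such as hemoglobins, Lyz2 and Apoe. Fits in cells without such UMIs may therefore also leave out T cells that make these genes. Genes were kept by filterByExpr, libraries scaled by TMM, and groups compared with edgeR 4.0.16 in R 4.3.3 (quasi-likelihood, robust), with adjusted p under 0.05 as the threshold. The standard error is the absolute log2 fold change over the square root of F. Spleen and colon LP were fitted as 4 groups of 2 libraries; small intestine and epithelium over the 8 replicate 2 libraries; genotype over 12 libraries with tissue as a term; cycling cells with library as a block. DESeq2 1.42.0 was an alternative, with other gates, filters, scalings, single batches and each library left out. Python 3.11.15 with scipy 1.17.1 gave exact Poisson 95% intervals, which cover counting error only. All members could be named, with values per library for those past the threshold or, for genotype, the 3 smallest p, and up to 3 genes per other list by p. Lack of overlap between libraries is described for genes named in this way. The share of all genes without overlap was not computed for any comparison. Same-numbered libraries deviated together from their group means (correlations 0.238 to 0.461), which is where the pairing comes from, and the number is also the batch. On simulated counts for colon LP against spleen over 10976 genes, the fit recovered 11.9% of 1.5-fold, 44.8% of 2-fold and 92.4% of 4-fold changes, with 4 false calls, so a small change could be missed.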

Additional observations from a re-analysis of the deposited data

Results flagged for a closer look

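A signal appeared in cells outside every main comparison above, the 1450 cells with no CD3 UMI. These cells entered only the alternative fits over all cells without a CD3 gate. Scd1 stood at 3.79 CPM in these cells pooled (16 UMIs), against 0.277 in CD3-positive cells, Fads2 at 1.90 (8 UMIs) against 0.143, and Abca1 at 4.03 (17 UMIs) against 0.249. Each was at least 5 times the level of the CD3-positive cells, and all 3 are members too low to test there. The epithelial KO library gave 6 of the 16 Scd1 UMIs and 5 of the 8 Fads2 UMIs. Which cells these are was not tested.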

How the results depend on the processing

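Of 70 member values that passed or were named, 1482 recomputed values gave 1249 on the same side of the threshold and direction, 233 that no longer passed and 0 reversed. The genotype values among them had not passed at first, so for these the same side means only that they still did not pass. The fits share most of their libraries, so these counts are not an independent check. The number of members past the threshold changed by over 1.5 times in these cases. For colon epithelium against spleen (7) it was 1 over all cells, 3 with a gate of 1 CD3 UMI and 4 in cells without UMIs of other lineages. For colon epithelium against colon LP (8) it was 2 over all cells. For small intestine LP against colon LP (0) it was 1 by DESeq2 and 1 without cycling cells. For colon LP against spleen (12) it was 4 in replicate 2 alone, and for cycling cells (19) it was 10 after thinning and 7 in replicate 1 alone. With each library left out in turn the counts ran from 4 to 14 for colon LP against spleen, 7 to 12 for small intestine LP against spleen, 0 to 5 and 0 to 11 for epithelium against spleen and colon LP, and 18 to 21 for cycling cells. They stayed at 0 to 0 for small intestine LP against colon LP and for the 4 genotype fits. The cause of these shifts was not tested. With the replicate number as a block, 15 members passed for colon LP against spleen, on the same 8 libraries, and 0 for genotype. For the other tissues the block could be fitted only over all 12 libraries, so the libraries changed as well: 10 and 7 passed for small intestine LP and epithelium against spleen, 9 for epithelium against colon LP and 0 for small intestine LP against colon LP, and the same 12 libraries without the block gave 10, 7, 11 and 0. Of the calls over 12 libraries, the block added Idi1 and took Nsdhl for epithelium against spleen, and took Fdps and Sqle for epithelium against colon LP. Library totals without TMM, cycling cells without UMIs of other lineages, the fits within 1 batch and the omission of single libraries for cycling cells were chosen after seeing the data. Small intestine and epithelium had 1 library per genotype, in 1 batch, so tissue and library cannot be told apart there within a genotype. A lone sample left after omission was assumed to vary like the other groups.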
